A study of Mus musculus with 29 samples.

Results

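The aortic arch of DNA-repair-deficient Ercc1 d/- mice kept on dietary restriction (DR) was compared with the arch of normal mice fed ad libitum (AL), all at 22 weeks of age. The comparison asks which genes of the restricted mutant stand at the level of a normally fed wildtype (WT) arch and which do not. The samples were chosen by their labels. Ercc1 d/- mice on DR gave 5 samples (006, 014, 016, 022 and 029) and Ercc1 +/+ mice on AL gave 4 (012, 018, 020 and 025), which makes 9 of the 29 samples of the series. A further WT sample of this age and diet, 003, had a low total and entered only an alternative fit.

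All mice came from crosses with a C57BL6J/FVB F1 hybrid background and were housed individually on AIN93G pellets. In Ercc1 d/- mice 1 allele of Ercc1 is lost and the other encodes a truncated protein with little function, in every cell of the body. Food was first reduced at 7 weeks and was 30% below the usual amount from 9 weeks onward. The restricted mutants were 3 males and 2 females, and the WT mice were 3 males and 1 female, sample 018, so sex was a term of the model. The groups differ in genotype and in diet together, and the parts of each cannot be told apart in this comparison alone. Values of 4 Ercc1 d/- mice on AL (2 males and 2 females) are therefore given beside it. Both comparisons use the same 4 WT samples and are not independent of each other.

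ERCC1 forms with XPF a nuclease that cuts damaged DNA in nucleotide excision repair, in the repair of cross-links and in some double-strand break repair. Mice with too little of it age early, and the aorta is among the organs affected. The wall of the arch is made of elastic lamellae with contractile smooth muscle between them, an endothelium inside, and an adventitia of fibroblasts, collagen and resident macrophages outside, with fat around it. DNA damage is known to activate p53 target genes and, where DNA reaches the cytosol, the cGAS-STING pathway and interferon genes. Food restriction is known to change metabolic, clock and immune genes in many tissues.

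RNA of the whole arch was counted per gene after removal of duplicate reads by their molecular identifiers. In such bulk samples, fewer cells of a type and less RNA per cell cannot be told apart. The restricted mutants held 921167 to 2572523 counts on genes and the WT mice 3903589 to 9616382. These ranges did not overlap (two-sided exact permutation test of the mean, p = 0.01587, the smallest that 5 against 4 samples allow). Mitochondrial genes took 4.04% to 9.22% of the counts in the restricted mutants and 2.47% to 3.72% in the WT mice (same exact permutation test, p = 0.01587). Values below are normalised counts, that is counts scaled to a common library of 3742812. A gene was called where edgeR's adjusted p was at most 0.05 and the change at least 1.2-fold. It was placed within 1.5-fold where it was not called and 2 one-sided tests, adjusted in the same way, put the difference inside that margin. All other genes were unresolved. A gene is said to have closed where it was called between AL-fed mutants and the WT and was within 1.5-fold on DR. A call starts at 1.2-fold (log2 0.263) and the margin is 1.5-fold (log2 0.585), so a gene can close with little change. Errors of log2 fold changes are SE from the fit, with n = 5 restricted mutants and n = 4 WT mice.

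Ercc1 itself followed the labels. It stood at 131.0, 113.3, 111.1 and 117.4 normalised counts in the WT samples and at 28.9, 81.2, 37.2, 65.9 and 80.1 in the restricted mutants. All 5 restricted samples lay below all 4 WT samples, a log2 fold change of -1.02 ± 0.19 (adjusted p = 5.03e-04). The gene lies on chromosome 7 at 19075881 to 19090450 of GRCm39.

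Of 12353 genes tested, 2071 were called between restricted mutants and AL-fed WT mice (16.8%), 973 higher (7.88%) and 1098 lower (8.89%) in the mutants. A further 6059 genes (49.0%) were within 1.5-fold and 4223 were unresolved. The unresolved genes had lower levels, with a median of 3.29 log2 CPM against 5.55 for the genes within 1.5-fold and 5.62 for the called genes. The values of both groups did not overlap for 1885 genes (15.3%). The median log2 fold change over all tested genes was 0.01.

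**Figure D1:**
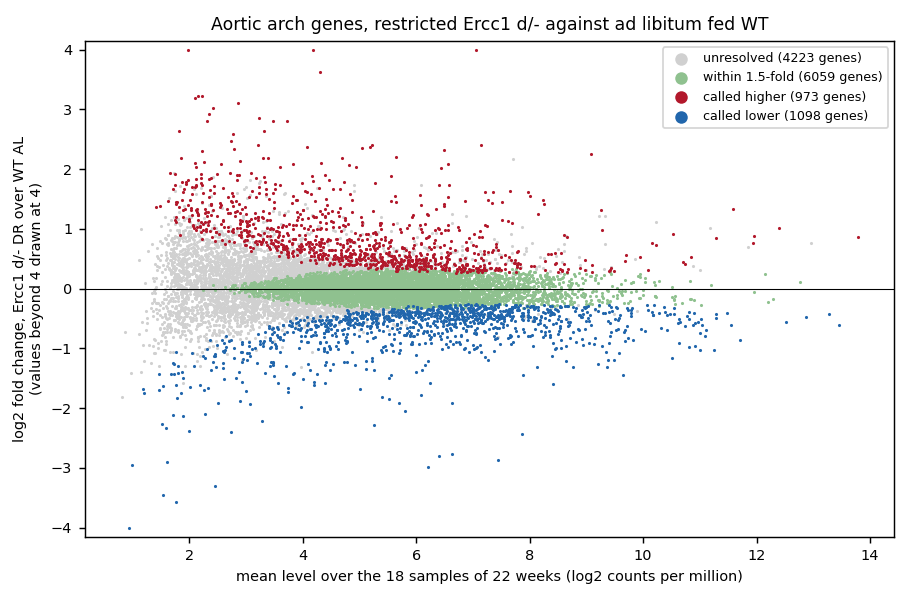
Each point is a gene, placed by its mean level (horizontal axis, log2 CPM, counts scaled to a common library size) and by its log2 fold change in restricted Ercc1 d/- over AL-fed WT arches (vertical axis, values beyond 4 drawn at 4). The 973 higher and 1098 lower genes lie on both sides of the 6059 genes within 1.5-fold, and the 4223 unresolved genes gather at low levels.

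In the same fit, 1644 genes (13.3%) were called between AL-fed mutants and AL-fed WT mice, 749 higher (6.06%) and 895 lower (7.25%). Under restriction 979 of them (59.55%) still differed from the WT in the same direction, 352 (21.41%) were within 1.5-fold, 312 (18.98%) were unresolved and 1 differed in the opposite direction. Genes that were high in AL-fed mutants remained called in 379 of 749 cases (50.6%), were within 1.5-fold in 144 and unresolved in 225. Genes that were low remained called in 600 of 895 cases (67.04%), were within 1.5-fold in 208 and unresolved in 87. The genes within 1.5-fold had median log2 fold changes on AL of 0.43 for those that were high and -0.43 for those that were low. Both medians lie inside the 1.5-fold margin, so many of these genes had AL estimates inside it already. Their smaller difference on AL is partly set by the class rule. Among the genes still called, these medians were 0.99 and -0.63 on AL, and 0.95 and -0.62 under restriction. A diet effect within the mutants was itself called for 43 of the 352 genes within 1.5-fold. For the others the direct comparison of DR with AL did not pass, so their class rests on the comparisons with the WT.

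The largest differences that closed under restriction were led by Col8a1, a short-chain collagen that smooth muscle makes when it migrates. Its normalised counts were 72.0, 93.0, 100.6 and 97.4 in the WT samples and 115.5, 73.1, 106.6, 68.8 and 89.9 in the restricted mutants, whereas the AL-fed mutants ranged from 229.5 to 255.7. The restricted and WT samples interleaved and every AL-fed mutant lay above them. The log2 fold change against the WT was 1.48 ± 0.15 on AL and -0.00 ± 0.17 on DR (95% interval -0.35 to 0.34).

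The other genes high on AL that closed were Cx3cl1 (a chemokine for monocytes), F13a1 (a transglutaminase made by resident macrophages), Bok (a member of the BCL2 family), H2-T10 (an MHC class I-like gene) and Srxn1 (sulfiredoxin). Cx3cl1 fell from a mean of 155 normalised counts on AL to 70.0 on DR, against 64.9 in the WT. F13a1 stood at 462, 272 and 223 in these groups, and Srxn1 at 264, 181 and 152. Their log2 fold changes on DR were 0.12 ± 0.18, 0.23 ± 0.15 and 0.23 ± 0.11, all within 1.5-fold. Bok and H2-T10 had log2 fold changes of 0.83 and 0.77 on AL and of 0.01 ± 0.25 and 0.18 ± 0.18 on DR.

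Among genes that were low on AL, Hhip, a membrane protein that binds Hedgehog ligands, closed the most. The WT samples held 114.0, 163.6, 163.2 and 117.7 normalised counts and the restricted mutants 173.3, 162.4, 131.4, 137.5 and 109.4, while AL-fed mutants held 40.3 to 75.9. The WT and restricted ranges overlapped almost entirely, and all AL-fed mutants lay below both. The log2 fold change was -1.21 ± 0.18 on AL and -0.02 ± 0.15 on DR. Gpc3, a cell-surface proteoglycan, was at means of 413, 256 and 414 in WT, AL-fed and restricted mice. Rhobtb1, which is known to act on vascular tone, was at 712, 402 and 602. Myo19, a mitochondrial myosin, Zfp354a, a zinc finger protein, and Eda, a ligand of the TNF family, had log2 fold changes of -0.83, -0.78 and -0.75 on AL and of -0.06, -0.14 and 0.01 on DR. The diet effect within the mutants was called for Col8a1, Cx3cl1, F13a1, Srxn1, Hhip and Gpc3 among these 12 genes (adjusted p from 1.79e-05 to 0.0138) and not for the other 6 (0.0883 to 0.205). Leaving out single samples moved Bok out of the 1.5-fold class in 8 of 13 cases, Rhobtb1 in 7, H2-T10 and Zfp354a in 6 each, F13a1 in 3 (012, 016 and 020), Cx3cl1 in 2 (006 and 018), Myo19 in 1 (029) and Eda in 1 (018).

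**Figure D2:**
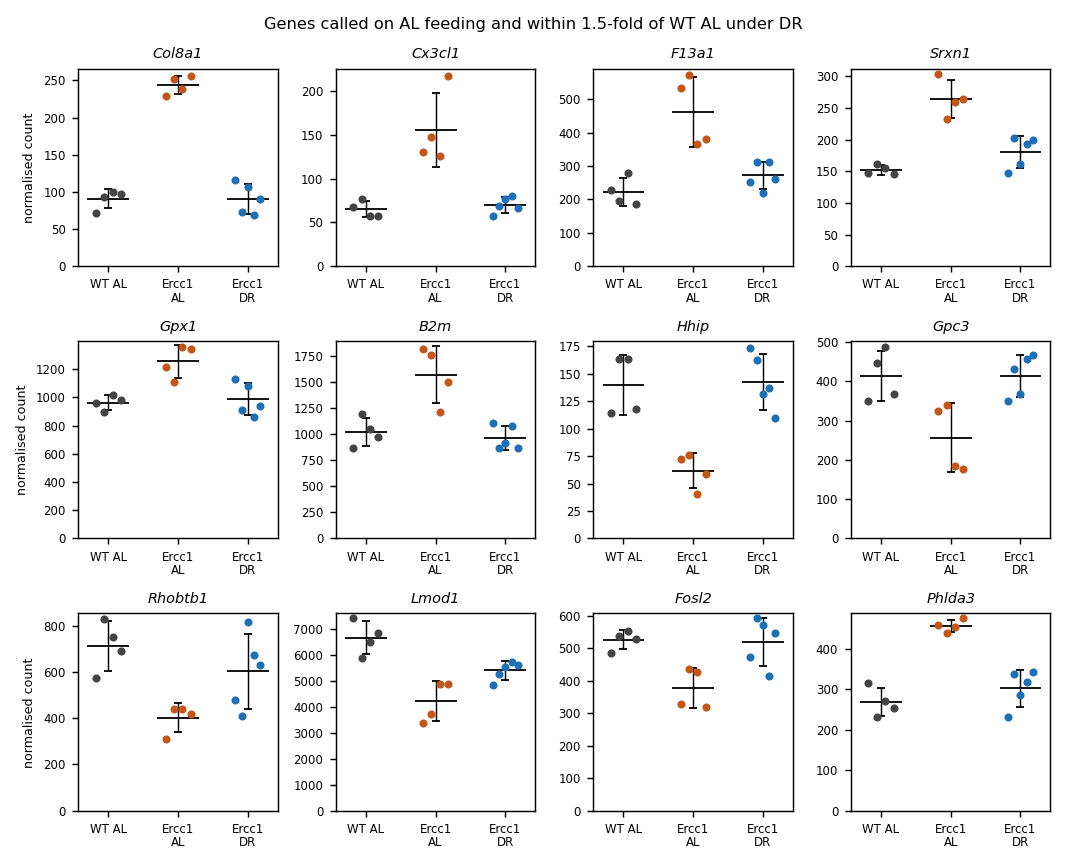
Normalised counts of 12 genes in AL-fed WT (4 samples), AL-fed Ercc1 d/- (4) and restricted Ercc1 d/- (5) arches, each point a mouse, with the mean (bar) and SD (whisker). In each panel the restricted mutants overlap the WT mice or lie next to them, as for Col8a1, where WT samples span 72.0 to 100.6 and restricted samples 68.8 to 115.5, while the AL-fed mutants stand apart on average.

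Other differences stayed. Cdkn1a, the p53-induced cell cycle inhibitor p21, held 137.0, 157.0, 229.3 and 167.4 normalised counts in the WT samples and 714.7, 674.0, 840.3, 594.9 and 834.4 in the restricted mutants. Every mutant lay well above every WT mouse, a 4.23-fold difference (log2 2.08 ± 0.16, adjusted p = 1.67e-07) beside 1.99 ± 0.17 on AL. Celf4, an RNA-binding splicing factor, was at a mean of 9.21 normalised counts in the WT, 65.0 on AL and 63.6 on DR (log2 2.85 ± 0.26 on DR). Fetub, a secreted protease inhibitor, had log2 fold changes of 2.69 on AL and 2.64 on DR, and Pals2, a scaffold of cell junctions, 1.43 and 1.77. Gda, guanine deaminase, had 1.68 and 1.45, and Slc43a3, a purine transporter, 0.89 and 1.13.

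The lowest p of all belonged to Bcam, a laminin receptor of the smooth muscle surface. Its normalised counts were 4937, 4823, 5088 and 4936 in the WT samples and 1444, 1807, 1723, 1981 and 1968 in the restricted mutants. WT values lay within a narrow band, and the restricted mutants reached at most 1981, a 2.73-fold difference (log2 -1.45 ± 0.10, adjusted p = 1.76e-09) beside -1.16 ± 0.11 on AL. Cpxm2, a secreted carboxypeptidase-like protein, held 384.1 to 536.4 in the WT and 93.8 to 158.5 in the restricted mutants. It was further from the WT on DR (log2 -1.79 ± 0.14) than on AL (-0.95 ± 0.14), and the diet effect was called (-0.83 ± 0.15, adjusted p = 0.00576). Ergic1, of the secretory pathway, showed the same order (-0.998 on DR, -0.54 on AL, diet effect -0.46, adjusted p = 0.0122). Cdh13 (T-cadherin), Susd5 and Gm13889 were at -0.999, -1.26 and -1.84 on DR and at -0.88, -0.99 and -1.34 on AL, without a called diet effect.

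Genes called under restriction and not on AL numbered 1091, of which 427 had an unadjusted p under 0.05 in the same direction on AL. A called diet effect within the mutants backed 75 of them, 41 higher and 34 lower. That effect and the comparison with the WT share the 5 restricted samples. Over all genes the diet effect within mutants was called for 0.648% (higher on DR) and 0.988% (lower on DR). Usp54, of the ubiquitin-specific peptidase family, was at 273.1, 316.3, 329.0 and 309.4 normalised counts in the WT and at 524.6, 499.4, 661.8, 387.2 and 596.0 in the restricted mutants. All restricted samples exceeded all WT samples, and the AL-fed mutants (253.4 to 353.6) lay among the WT. This was a log2 fold change of 0.80 ± 0.11 on DR (adjusted p = 2.28e-05) and 0.02 ± 0.12 on AL. Pde4d, a phosphodiesterase that degrades cAMP, had 1.33 ± 0.19 on DR and 0.35 on AL, Avil, the actin regulator advillin, 1.27 and 0.28, and Gm56906, a predicted gene, 1.30 and 0.50.

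Efemp2, Bgn, Serpine2 and Ptgfrn are described from the 34 lower genes. Efemp2 (fibulin-4), which is needed for elastic fibre assembly, held 421.1, 488.0, 441.0 and 448.3 normalised counts in the WT and 257.5, 268.0, 337.1, 279.2 and 304.8 in the restricted mutants. The groups did not overlap, and AL-fed mutants (360.8 to 439.9) reached into the WT range. Its log2 fold change was -0.62 ± 0.10 on DR (adjusted p = 5.41e-05) and -0.13 ± 0.10 on AL. Bgn (biglycan), an abundant small proteoglycan, was at a mean of 26332, 22517 and 17732 in WT, AL-fed and restricted mice, with log2 fold changes of -0.21 on AL and -0.56 ± 0.09 on DR. Serpine2, a thrombin and plasmin inhibitor, and Ptgfrn, a tetraspanin-associated membrane protein, were at -0.70 and -0.56 on DR and at -0.16 and -0.13 on AL.

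Fcrl2, an Fc receptor-like gene, was the gene that crossed the WT level. It was at 42.0, 38.9, 38.8 and 33.6 normalised counts in the WT, 43.1 to 108.0 in AL-fed mutants and 12.0, 16.2, 12.4, 23.9 and 3.91 in restricted mutants. Every AL-fed mutant was above and every restricted mutant below the WT range. Against the WT, log2 fold changes were 0.79 ± 0.22 on AL (adjusted p = 0.0196) and -1.50 ± 0.32 on DR (9.53e-04), with a diet effect of -2.29 ± 0.33 in the mutants.

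**Figure D3:**
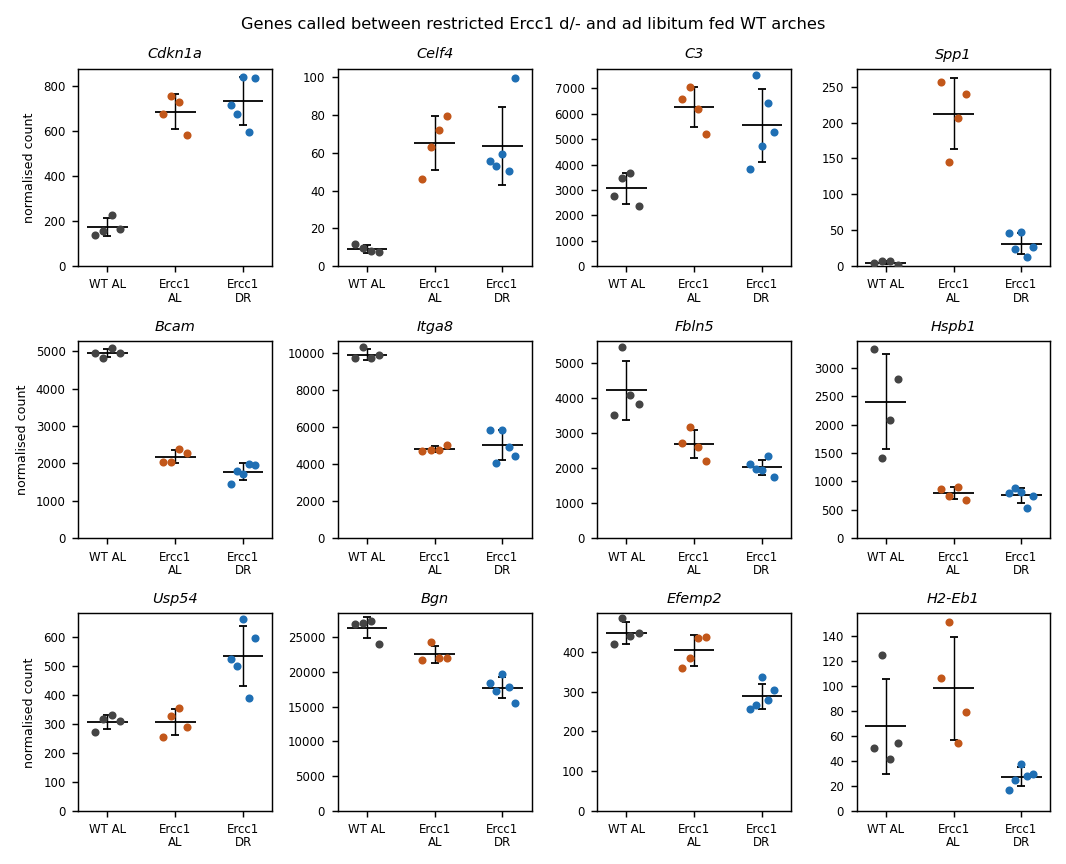
Normalised counts of 12 called genes in AL-fed WT (4 samples), AL-fed Ercc1 d/- (4) and restricted Ercc1 d/- (5) arches, each point a mouse, with the mean (bar) and SD (whisker). Restricted mutants keep the distance of AL-fed mutants for Cdkn1a and Itga8, stand between for Spp1, and are called where AL-fed mutants are not for Usp54, Efemp2 and H2-Eb1.

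Among DNA damage genes, 32 of 35 listed p53 targets were tested. On DR 11 were higher than in the WT, 2 were lower and 12 were within 1.5-fold, beside 7.88%, 8.89% and 49.0% of all genes. The median log2 fold change of the 32 was 0.29. With all samples thinned to the smallest total, 6 were higher, 1 lower and 7 within 1.5-fold (median 0.20). On AL 14 were higher, with a median of 0.41, and of those 7 remained called, 4 closed and 3 were unresolved on DR. Cdkn1a stayed high, as did Perp, a desmosome protein of the apoptotic response (0.67 ± 0.12 on DR, 0.48 on AL). Phlda3, an inhibitor of AKT, closed from 0.74 ± 0.15 to 0.16 ± 0.14 (diet effect adjusted p = 0.0389), and Aen, an apoptotic nuclease, from 0.63 to 0.23 ± 0.13, though not without sample 029. Of 25 nucleotide excision repair genes 3 were higher, Lig1 (DNA ligase 1) among them at 0.71 ± 0.15, and 2 were lower, Ercc1 among them. The shares over all genes were 7.88% higher and 8.89% lower. Of 14 tested proliferation genes the replication genes Mcm7 (0.59 ± 0.15) and Pcna (0.29 ± 0.10) were called higher. Mcm6 closed from 0.45 to 0.07. The call of Pcna was lost in 9 of 13 omissions of single samples.

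NRF2, a factor activated by oxidants, drives many antioxidant genes. Of 29 tested NRF2 and antioxidant genes, 18 were within 1.5-fold, beside 49.0% of all genes, and 8 were higher on DR, beside 7.88% of all genes (median 0.11, against 10 higher and 0.25 on AL). Leaving out WT sample 018 left 4 higher, and leaving out restricted sample 006 left 5. Gpx1 (glutathione peroxidase 1) held 963.3, 893.0, 1015 and 983.0 normalised counts in the WT and 1129, 913.5, 1083, 864.2 and 941.8 in the restricted mutants, with AL-fed mutants at 1108 to 1357. The WT range lay inside the restricted range. Its log2 fold change was 0.05 ± 0.08 on DR and 0.42 ± 0.08 on AL, with a called diet effect (-0.36, adjusted p = 0.0166). Txnrd1 (thioredoxin reductase 1) closed from 0.43 to 0.09 ± 0.09, with a diet effect that was not called (adjusted p = 0.066). Gclc, which makes glutathione, and G6pdx, which makes NADPH, stayed higher, at 0.57 ± 0.11 and 0.54 ± 0.11.

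Fewer type I interferon response genes were called on DR than on AL. Of 28 tested, 23 were higher on AL (median 1.01). On DR 11 were higher, 2 were within 1.5-fold and 15 were unresolved (median 0.61). The diet effect within the mutants was called for 1 of the 28, lower on DR. Oas2, which senses double-stranded RNA, held 6.00, 30.8, 9.70 and 9.39 normalised counts in the WT and 43.3, 52.8, 44.6, 102.4 and 41.0 in the restricted mutants. All restricted samples were above the WT samples, of which 018 was the highest. On the log2 scale the difference was 1.89 ± 0.29 (adjusted p = 5.36e-05), beside 2.35 ± 0.28 on AL. Irf7, the interferon-induced factor that amplifies the response, was at 1.45 ± 0.36 on DR and 2.42 on AL, Irf9, a subunit of ISGF3, at 0.67 and 0.87, and Bst2 (tetherin) at 0.79 and 0.86. Ifi35 closed from 0.48 to 0.12 ± 0.13. Without restricted sample 022, the highest for Oas2, Irf7 and Irf9, only 5 genes of the list were called (median 0.46), and Irf7 and Irf9 were not (adjusted p = 0.0526 and 0.056). Omitting WT sample 025 left 7, thinning left 6, and omitting WT sample 018 gave 14 (median 0.81).

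Of 18 cytosolic DNA sensing genes, 5 were higher on DR and 7 within 1.5-fold (median 0.29), against 9 higher on AL (median 0.47). Over all genes 7.88% were higher and 49.0% within 1.5-fold on DR, and 6.06% were higher on AL. Within the mutants, the diet effect was called for 0 of these 18. Samhd1, which degrades deoxynucleotides, was at 0.86 ± 0.11 on DR and 0.60 on AL, and Ifi205, a DNA-binding protein of the p200 family, at 1.85 ± 0.30 and 1.95. Adar, which edits double-stranded RNA, closed from 0.34 to 0.21 ± 0.11.

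The interferon-stimulated response element is the site that ISGF3 is known to bind. The letters GAAANNGAAA on either strand were found in the promoter windows of 9 of 17 listed genes that matched a RefSeq entry (52.94%) and in 3.47% of the 9376 tested genes with an entry. A window runs from 250 bases before to 50 after the start of a gene in RefSeq on GRCm38.p6, an earlier build than that of the counts. The stretches below hold matches upstream of the start, in capitals. They are shown for 4 of the 9 genes, a choice made with their values known. Whether these genes move together was not tested. Bst2 (chr8:71537567-71537622, minus strand) was called on both diets, and Ifit1 (chr19:34640765-34640833, plus), Isg15 (chr4:156200855-156200916, minus) and Rsad2 (chr12:26456543-26456592, minus) on AL.
Bst2: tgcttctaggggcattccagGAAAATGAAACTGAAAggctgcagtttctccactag
Ifit1: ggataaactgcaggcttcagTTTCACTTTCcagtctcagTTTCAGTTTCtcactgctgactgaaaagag
Isg15: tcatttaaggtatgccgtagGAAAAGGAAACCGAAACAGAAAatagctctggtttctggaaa
Rsad2: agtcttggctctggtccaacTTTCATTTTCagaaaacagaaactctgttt
Matches overlap in Bst2 and Isg15. On DR Ifit1 had a log2 fold change of 1.70, Isg15 of 1.11 and Rsad2 of 1.28, none of which passed (adjusted p = 0.0578, 0.0508 and 0.0536). A match is a description of these letters and not a measured binding site.

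MHC class II genes stood on the other side of the AL-fed WT. These genes let macrophages, dendritic cells and B cells present peptides to helper T cells. H2-Aa, H2-Ab1, H2-Eb1, H2-DMa, H2-DMb1 and Cd74 were lower on DR and not called on AL. Of 9 genes tested, 6 were lower, 2 higher and 1 within 1.5-fold, with a median log2 fold change of -1.21 against 0.28 on AL. In WT mice, DR against AL in the same fit was also called lower for 6 of the 9 (median -2.18). In the mutants the diet effect was called lower for 2 of the 9 (median -1.44). The WT contrast uses the same AL-fed WT samples, 018 among them. H2-Eb1 held 50.01, 124.7, 41.46 and 53.98 normalised counts in the WT and 16.8, 24.4, 37.2, 28.1 and 29.3 in the restricted mutants. No sample of one group reached the other, and WT sample 018, the only female, stood far above the rest. The log2 fold change was -1.42 ± 0.27 (adjusted p = 3.93e-04), and the diet effect in the mutants was called (-1.70 ± 0.28, adjusted p = 0.00132). H2-Ab1 held 97.0, 309.2, 112.0 and 85.7 in the WT and 40.6 to 73.0 in the restricted mutants, with a log2 fold change of -1.43 ± 0.32 and a diet effect of -1.70 ± 0.32. Cd74, the invariant chain, was at 166.0, 562.0, 181.7 and 194.0 in the WT and at 60.2 to 215.7 in the restricted mutants, and these ranges overlapped (-1.21 ± 0.39, adjusted p = 0.0426).

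These calls leaned on sample 018. Without it 2 of the 9 genes were lower and 1 higher (median -0.92), and in male mice alone 0 were lower and 2 higher by edgeR (median -0.60), with 5 at an unadjusted p under 0.05. Omitting restricted sample 014 or 022 left 3 lower in each case. H2-Eb1 and H2-Ab1 kept their call in every omission of a single sample. H2-Aa, H2-DMa, H2-DMb1 and Cd74 did not, with adjusted p up to 0.119, 0.264, 0.112 and 0.187, and Cd74 lost its call in 11 of 13 omissions. Of the processing genes in the list, Ctss (cathepsin S) stayed higher (1.22 ± 0.34 on DR, 2.10 on AL), Ifi30 was higher (0.47 ± 0.13) and Lgmn (legumain) closed from 0.38 to 0.00 ± 0.10. The call of Ctss was lost without sample 016 or 018 (adjusted p up to 0.0811).

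None of the MHC class I and immunoproteasome genes was called higher under restriction. Of 15 tested, 9 were within 1.5-fold, beside 49.0% of all genes, 4 were unresolved and 2 were lower, the chaperones Pdia3 (-0.45 ± 0.08) and Calr (-0.45 ± 0.09). The 4 genes that were high on AL were all within 1.5-fold on DR. Their AL estimates, at a log2 fold change of at most 0.56, lay below that margin (0.585) as well. B2m, the light chain of class I molecules, held 869.2 to 1190 normalised counts in the WT, 1213 to 1812 in AL-fed mutants and 868.8 to 1104 in restricted mutants. The restricted range nearly matched the WT range, and all AL-fed mutants lay above both. Its log2 fold change was 0.56 ± 0.11 on AL and -0.10 ± 0.10 on DR, with a called diet effect (-0.66, adjusted p = 0.00131). Psmb10, of the immunoproteasome, closed from 0.53 to -0.16 ± 0.18, though not without sample 016, 022 or 025.

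Phagocytosis and complement genes that were called were higher in the mutants on both diets. Of 23 phagocytosis and macrophage signalling genes, 15 were higher on AL (median 1.49), beside 6.06% of all genes. On DR 14 were unresolved, 1 was within 1.5-fold and 8 were higher (median 0.95), beside 7.88% of all genes higher. The DR count was 4 without restricted sample 016 (median 0.47), 4 without WT sample 012, 018 or 025, 5 without AL-fed mutant 004 and 3 after thinning. Of 18 complement genes, 9 were higher on AL (median 0.94) and 8 on DR (median 0.40), and the latter count was 5 without WT sample 018 (median 0.27) and 4 after thinning. On DR 7 of these 18 genes were unresolved and 3 within 1.5-fold. The diet effect was called for 4 of the 23 and 3 of the 18 genes, all lower on DR. C3, the central complement component, held 2767, 3486, 3651 and 2354 normalised counts in the WT and 3833, 7507, 4715, 6420 and 5272 in the restricted mutants. All restricted samples were above the WT, and AL-fed mutants ranged from 5184 to 7065. The log2 fold change was 0.76 ± 0.13 on DR (adjusted p = 5.4e-04) and 0.91 on AL. Fcgr2b, an inhibitory IgG receptor, was at 1.44 on DR and 1.75 on AL, and Lgals3 (galectin-3) at 1.11 and 1.97. Cyba, a subunit of the NADPH oxidase, closed from 0.47 to 0.04 ± 0.13. Cd68, a lysosomal macrophage protein, was at 31.0, 27.0, 38.8 and 26.6 in the WT and at 55.4, 36.5, 74.4, 63.1 and 29.3 in restricted mutants, and these values overlapped. Its log2 fold change was 1.98 on AL and 0.75 ± 0.26 on DR (adjusted p = 0.0497), a call that 7 of 13 omissions of single samples ended.

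Of 29 lysosome genes, 22 were within 1.5-fold, beside 49.0% of all genes, and 4 were higher on DR (median 0.02, against 11 higher and 0.18 on AL). Without restricted sample 016, 1 was higher and 1 lower, and 2 were higher without WT sample 018 or after thinning. Lipa, the acid lipase, and Ctsl (cathepsin L) stayed higher, at 0.47 ± 0.09 and 0.28 ± 0.08. The call of Ctsl was lost without sample 006 or 016. Gusb and Ctsc (cathepsin C) closed, from 0.52 to 0.12 ± 0.13 and from 0.51 to -0.22 ± 0.13, Ctsc though not without sample 022.

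Of 13 tested chemokine, cytokine and adhesion genes, 8 were higher on AL (median 1.23). On DR 4 were higher (median 0.30), 3 were within 1.5-fold and 6 were unresolved. Spp1 (osteopontin) held 4.00, 7.11, 7.06 and 2.35 normalised counts in the WT, 145.4 to 257.1 in AL-fed mutants and 45.7, 24.4, 47.1, 12.6 and 27.4 in restricted mutants. The 3 groups did not overlap. The log2 fold change was 5.49 ± 0.38 on AL and 2.59 ± 0.42 on DR (adjusted p = 9.11e-05), with a diet effect of -2.90 ± 0.29. Vcam1, which binds leukocytes, stood between too, at 257.1 to 389.9 in the WT, 931.4 to 1233 on AL and 363.4 to 644.9 on DR, a log2 fold change of 1.78 on AL and 0.69 ± 0.17 on DR, and 1 restricted sample, 029, lay inside the WT range. Ccl9 was at 2.33 on AL and 1.77 ± 0.31 on DR. Cxcl12 closed from 0.42 to -0.03 ± 0.11. Of 20 senescence and secretory genes, 5 were higher and 4 lower on DR, beside 7.88% and 8.89% of all genes. Their median was -0.09, with 11 of the 20 below 0, so the list had no common direction. Hmgb2, a chromatin protein, was among the higher (1.28 ± 0.19 on DR, 0.68 on AL).

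**Figure D4:**
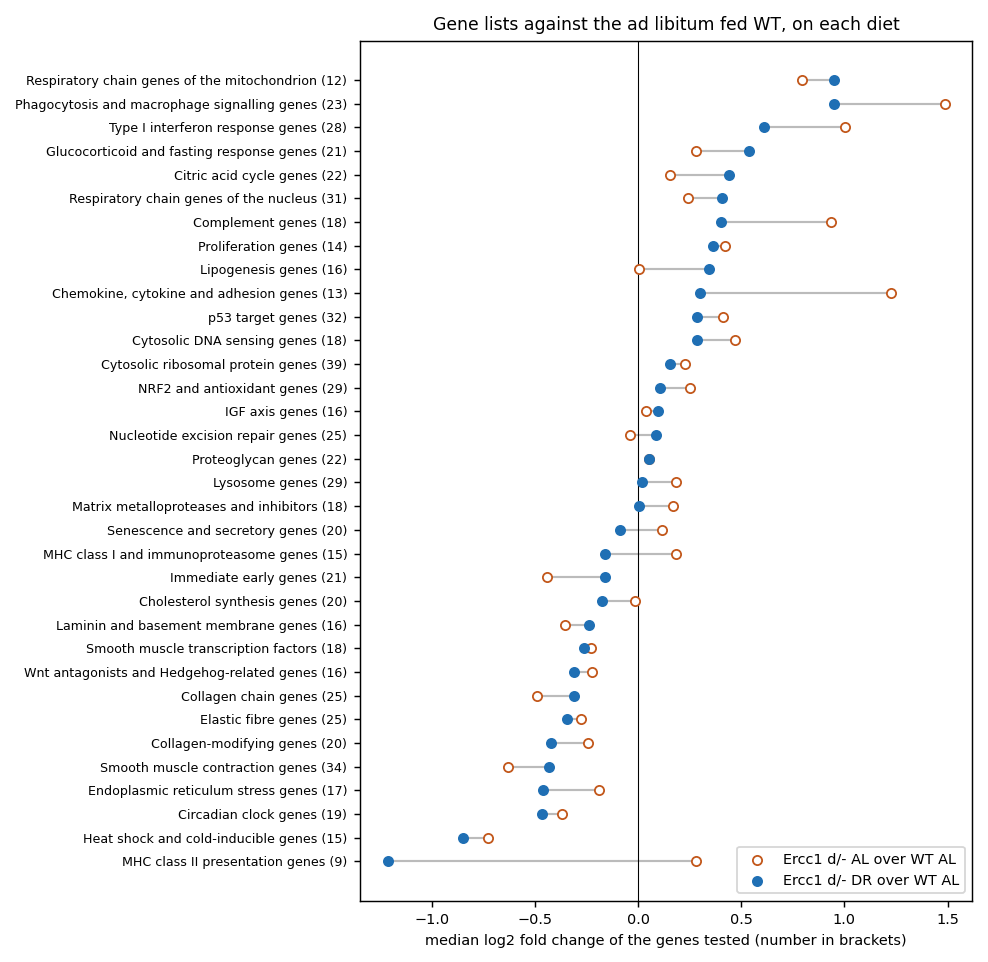
Median log2 fold change of each gene list against the AL-fed WT, for AL-fed mutants (open circles) and restricted mutants (filled circles), with the number of tested genes in brackets. The median of MHC class II genes passes from 0.28 to -1.21, those of chemokine and complement genes lie nearer 0 on DR, and those of elastic fibre, collagen, contraction and heat shock genes lie below 0 on both diets.

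Elastic fibre and collagen genes that were called on DR were all lower than in the WT. Of 25 elastic fibre genes, 13 were lower and 8 within 1.5-fold on DR (median -0.34), against 11 lower and 2 higher on AL (median -0.28). Over all genes 8.89% were lower and 49.0% within 1.5-fold on DR, and 7.25% were lower and 6.06% higher on AL. The diet effect was called for 2 of these 25 genes, both lower on DR. Fbln5 (fibulin-5), which ties elastin to cells, held 3521, 5436, 4088 and 3824 normalised counts in the WT and 2118, 1965, 1951, 2335 and 1735 in the restricted mutants. The groups were well apart, at a log2 fold change of -1.08 ± 0.11 on DR (adjusted p = 3.05e-07) and -0.70 on AL. Ltbp1, which stores latent TGF-beta, was at -0.79 and -0.57. Tgfb1 and Ltbp2, both high on AL, closed from 0.42 to 0.22 ± 0.10 and from 0.41 to 0.15 ± 0.11.

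Of 25 collagen chain genes, 14 were lower on each diet, and on DR 6 were within 1.5-fold (median -0.31 on DR, -0.49 on AL). Col18a1, the source of endostatin, was at a mean of 10142, 5882 and 5036 in WT, AL-fed and restricted mice, a log2 fold change of -0.96 ± 0.09 on DR. Col15a1, of the basement membrane zone, was at -1.20 on DR and -0.92 on AL. Col4a4 closed from 0.56 to 0.30 ± 0.13, a class that 7 of 13 omissions of single samples ended. Of 20 genes that modify or fold collagen, 11 were lower on DR and 4 on AL (median -0.42 and -0.24), and 0 were higher on either diet. Within the mutants, the diet effect was called for 1 of these 20, lower on DR. Serpinh1 (HSP47), the collagen chaperone, was at -1.31 ± 0.16 and Crtap, of the prolyl 3-hydroxylase complex, at -0.62 ± 0.10. Of 22 proteoglycan genes, 5 were higher and 6 lower on DR (median 0.05), beside 7.88% and 8.89% of all genes. Omitting WT sample 018 left 3 higher and 4 lower, and omitting restricted sample 006 left 3 higher. Hspg2 (perlecan) was at -0.61 ± 0.09 on DR and -0.67 on AL. Of 16 laminin and basement membrane genes, 7 were lower on each diet and 1 was higher on DR. Nid1 and Dag1 closed, from -0.40 to -0.15 ± 0.12 and from -0.38 to -0.23 ± 0.08, Dag1 though not without sample 029.

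Matrix metalloproteases and their inhibitors split by gene. Of 18 tested, 4 were higher, 3 lower and 7 within 1.5-fold on DR (median 0.00), beside 7.88%, 8.89% and 49.0% of all genes. Mmp3 (stromelysin 1) held 37.0, 18.0, 43.2 and 27.4 normalised counts in the WT, 143.3 to 207.0 in AL-fed mutants and 93.9, 69.0, 52.1, 56.1 and 56.7 in restricted mutants. It stood between the WT and the AL-fed mutants without overlap, at a log2 fold change of 1.15 ± 0.24 on DR (adjusted p = 0.00161) and 2.51 on AL. Timp1 showed the same order, at 0.77 ± 0.23 on DR and 2.17 on AL, but its values overlapped those of the WT and 5 of 13 omissions ended the call. Timp4 (2.08 on DR, 1.63 on AL) and Mmp17 (-0.95 and -0.96) had no called diet effect.

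Most contractile genes of smooth muscle were lower on both diets. Of 34 tested, 21 were lower, 9 within 1.5-fold and 0 higher on DR (median -0.43), against 25 lower on AL (median -0.63). Of those 25, 20 remained called, 4 closed and 1 was unresolved. Smtn (smoothelin), a marker of contractile cells, held 11252, 11995, 12243 and 11105 normalised counts in the WT and 4522, 5095, 6618, 6009 and 5876 in the restricted mutants. Restricted samples reached at most 6618 and WT samples were at least 11105, a 2.03-fold difference (log2 -1.02 ± 0.11, adjusted p = 5.98e-07) beside -0.92 on AL. Itga8, the integrin subunit of these cells, was at -0.97 ± 0.10 and -1.02. Acta2 (smooth muscle actin) was at -0.47 ± 0.11 and -0.54, Cnn1 (calponin) at -0.69 and -0.78, and Mylk (myosin light chain kinase) at -0.41 and -0.66. Tagln (transgelin) was within 1.5-fold on DR at -0.18 ± 0.10 and was not called on AL.

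Lmod1 (leiomodin), which nucleates actin, closed among the contractile genes. It was at 7415, 5880, 6513 and 6846 normalised counts in the WT, 3372 to 4900 in AL-fed mutants and 4854, 5286, 5533, 5735 and 5618 in restricted mutants. The restricted samples all lay below the lowest WT sample, so it was near the WT and not level with it, at -0.26 ± 0.10 on DR against -0.61 on AL, and it left the 1.5-fold class without sample 022. Atp2a2, the calcium pump SERCA2, closed from -0.46 to -0.24 ± 0.08, though not without sample 018 or 022. The diet effect within the mutants was called for 2 of the 34 genes, both higher on DR. The summed level of 10 smooth muscle markers was 96470 to 105501 in restricted mutants and 131672 to 155898 in the WT, and the part of cell number in these differences was not tested.

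Of 18 smooth muscle transcription factors, 5 were lower on DR. This count was 1 without restricted sample 029 or WT sample 025, 2 without WT sample 018, 3 without restricted sample 006 or after thinning and 8 without WT sample 012. Srf, which drives contractile genes through the CArG box, was at -0.64 ± 0.14 on DR and -0.68 on AL, and Rbpj, the nuclear partner of Notch, at -0.52 ± 0.14 and 0.00, a call lost without sample 006, 025 or 029 (adjusted p up to 0.0628). The CArG box, searched by its usual consensus on both strands, was in the windows of 4 of 29 contraction genes with a RefSeq entry (13.79%) and in 1.61% of all tested genes. The stretches of Myl9 (chr2:156775283-156775332, plus strand) and Vcl (chr14:20929151-20929200, plus) are shown, for 2 of these 4 genes, with the match in capitals. Both were lower on DR, Myl9 (a myosin light chain) at -0.41 ± 0.09 and Vcl (vinculin) at -0.62 ± 0.08, and their values were known when they were picked.
Myl9: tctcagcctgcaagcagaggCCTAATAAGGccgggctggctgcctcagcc
Vcl: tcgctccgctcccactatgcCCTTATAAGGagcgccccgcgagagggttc
Of 16 Wnt antagonist and Hedgehog-related genes, 4 were lower, Sfrp2 (-1.44 ± 0.13 on DR, -1.22 on AL) and Scube3 (-1.31 and -1.67) among them. Of 16 IGF axis genes, 1 was higher (4 without restricted sample 022), Stc1 (1.15 ± 0.23), and 1 lower, Igfbp4 (-0.51 ± 0.09), which AL-fed mutants did not show (-0.12). Over all genes 7.88% were higher and 8.89% lower.

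Energy metabolism genes that were called were higher in restricted mutants than in the WT. Over all genes tested 7.88% were called higher. Within the mutants, the diet effect was called for 0 genes of the mitochondrial chain, nuclear chain and citric acid cycle lists. Of 12 respiratory chain genes of the mitochondrial genome, 8 were higher on DR and 1 on AL (median 0.95 and 0.79). mt-Nd5 was at 17026, 12849, 14366 and 12966 normalised counts in the WT and at 46633, 27888, 20965, 20428 and 29627 in restricted mutants, which did not overlap (1.02 ± 0.26, adjusted p = 0.0163), and mt-Co2 was at 1.64 ± 0.39, but at -0.145 with sample 003 added. Of 31 nuclear genes of the chain, 4 were higher on DR and 0 on AL (median 0.41 and 0.24), Ndufa8 at 0.52 and Ndufs4 at 0.59, and the calls of mt-Nd5, mt-Co2, Ndufa8 and Ndufs4 were lost without WT sample 018 (adjusted p = 0.0672, 0.0614, 0.0829 and 0.122). Of 22 citric acid cycle genes, 2 were higher, the malate dehydrogenases Mdh1 (0.44 ± 0.13) and Mdh2 (0.63 ± 0.19). Without WT sample 018 none of these 3 lists held a called gene, with medians of 0.79, 0.19 and 0.25, although edgeR gave 9, 7 and 3 of their genes an unadjusted p under 0.05. With DESeq2 on all samples, 9, 11 and 7 were higher. Omitting restricted sample 006 left 3, 2 and 0, omitting WT sample 025 left 2, 4 and 0, and omitting restricted sample 022 gave 10, 9 and 5. Of 39 ribosomal protein genes 34 were within 1.5-fold, beside 49.0% of all genes, and 4 were higher (median 0.15), a count of 2 to 7 over omissions of single samples, Rps14 at 0.48 and Rps4x at 0.29, the latter lost without sample 006, 018 or 025 (adjusted p up to 0.0797). Rplp1 closed from 0.36 to 0.09. Rplp0 met the rule with little change, at 0.29 on AL and 0.25 on DR, and left the 1.5-fold class without sample 012 or 018.

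Fat-related and fasting genes were read beside the fat in the samples. Summed white fat markers were 10401 to 18327 normalised counts in restricted mutants and 6857 to 9477 in the WT, and brown fat markers 1770 to 5968 against 628.4 to 1251. Neither pair of ranges overlapped. AL-fed mutants were at 7011.5 to 16050.1 for white fat and 1089.5 to 6390.8 for brown fat, and both ranges overlapped those of restricted mutants. The part of attached fat in the metabolic lists was not tested. The brown fat gene Ucp1 was at 894.8 to 3061 in restricted mutants and at 160.8 to 533.7 in the WT but did not pass (2.18 ± 0.73, adjusted p = 0.0742). Cidea (1.21 ± 0.54) and Fabp4 (1.21 ± 0.39) did not pass either. Elovl3, Ppargc1a and Dio2 were called, at 4.20, 2.18 and 1.09 on DR and at 3.72, 1.41 and 1.08 on AL. Lpl (lipoprotein lipase) was at 2.25 ± 0.42 and Retn (resistin) at 1.53 ± 0.46, whereas Plin4 was within 1.5-fold at 0.20 ± 0.12.

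Leptin, the hormone of white fat, was the exception among fat genes. Lep had 62, 78, 41 and 68 reads in the WT samples and 1, 0, 0, 0 and 0 reads in the restricted mutants. Pooled over libraries it was 80.9-fold lower per count (95% interval 14.4 to 3209, counting error only, Clopper-Pearson), and AL-fed mutants had 10, 3, 0 and 5 reads. Of 16 lipogenesis genes 2 were higher, Gpam (1.24 ± 0.31) and Elovl6 (1.57 ± 0.44), beside 7.88% of all genes. The call of Gpam was lost without sample 018 (adjusted p = 0.0764), and that of Elovl6 without sample 006, 018, 025 or 029 (adjusted p up to 0.118). Scd2 closed from 0.61 to 0.12 ± 0.11. Of 20 cholesterol metabolism genes 4 were lower and 1 higher, beside 8.89% and 7.88% of all genes. Without WT sample 018 or after thinning, 2 were lower. Srebf2, a factor that drives cholesterol synthesis genes, was at -0.74 on DR and -0.50 on AL. Within the mutants, the diet effect was called for 1 of 21 glucocorticoid and fasting response genes, higher on DR. Of these 21, 9 were higher than in the WT on DR and 4 on AL (median 0.54 and 0.28). The metallothioneins Mt2 and Mt1 led them, Mt2 with 116.2 to 166.7 normalised counts in the WT and 385.8 to 991.4 in restricted mutants (2.33 ± 0.23, adjusted p = 1.46e-05) and Mt1 at 1.61 ± 0.18.

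Clock genes differed in both directions. Within the mutants, the diet effect was called for 0 of the 19 tested. Of these 19, 10 were lower and 2 higher than in the WT on DR, against 5 lower on AL (median -0.47 and -0.37). Without WT sample 018, 6 were lower and 1 higher, in male mice 4 were lower and 2 higher, and without WT sample 012 or restricted sample 022, 4 were higher. Bmal1, of the positive arm, held 20.0, 2.37, 1.76 and 4.30 normalised counts in the WT and 65.0, 65.0, 37.2, 19.6 and 50.8 in restricted mutants (2.92 ± 0.59). Dbp, an output gene, held 173.0, 1808, 1661 and 1172 in the WT and 74.6, 97.4, 161.1, 399.9 and 111.4 in restricted mutants (-2.81 ± 0.63). WT sample 012 and restricted sample 022 stood apart from their groups towards the other group in these genes, so the ranges overlapped. Nr1d1 was at -2.99 ± 0.64, Hlf at -1.22 and Bhlhe41 at -1.69. The hour at which each mouse was killed is not given in the sources used here. Of 21 immediate early genes 1 was lower on DR, Ier3 (-0.62 ± 0.17, lost without sample 018 or 022, adjusted p up to 0.0593), and 4 were within 1.5-fold (median -0.16). Over all genes 8.89% were lower and 49.0% within 1.5-fold. The count of lower genes was 4 without WT sample 012 (median -0.33), 3 without restricted sample 016 (median -0.62) and 3 with DESeq2. Jun was at -0.81 ± 0.30 and unresolved (adjusted p = 0.0862), and Fosl2 closed from -0.45 to -0.02 ± 0.12.

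Most heat shock genes were lower on both diets. They encode chaperones that refold proteins under heat or stress. Of 15 heat shock and cold-inducible genes, 12 were lower on DR, 1 was higher and 2 were unresolved (median -0.85), against 11 lower on AL (median -0.73). Hspb1 (HSP27), abundant in smooth muscle, held 3330, 1413, 2072 and 2797 normalised counts in the WT and 791.7, 885.1, 818.0, 543.0 and 750.3 in restricted mutants. All WT samples were higher, at a log2 fold change of -1.59 ± 0.21 (adjusted p = 1.24e-04) beside -1.44 on AL. Hspa1b, an inducible HSP70, held 607.2, 2140, 2765 and 2282 in the WT and 146.8 to 392.8 in restricted mutants (-2.87 ± 0.42). Its near-identical copy Hspa1a was at -2.76 ± 0.43, and reads that align to both copies could have been left out of the counts. The cold-inducible gene Rbm3 was the gene called higher (0.52 ± 0.17), a call that 8 of 13 omissions ended, and Cirbp was at 0.44 ± 0.19 without a call. Of 17 endoplasmic reticulum stress genes, 8 were lower on DR, and 2 were lower and 1 higher on AL (median -0.46 and -0.19). Within the mutants, the diet effect was called for 0 of these 17. Herpud1 was at -0.57 ± 0.12 on DR and the chaperone Hsp90b1 at -0.48 ± 0.10.

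The heat shock element, the site of HSF1, was searched as GAANNTTCNNGAA on either strand. It was in the promoter windows of 4 of 11 listed genes with a RefSeq entry on GRCm38.p6 (36.36%) and in 0.608% of the 9376 tested genes with one. Among these 4, Hspd1 and Hspe1 lie on opposite strands with overlapping windows and share the same matches, so these are counted for both. Hspe1 was unresolved on DR. The window of Hspd1 (chr1:55088039-55088096, minus strand), a mitochondrial chaperone that was lower on DR (-0.45 ± 0.14), holds overlapping matches, in capitals.
Hspd1: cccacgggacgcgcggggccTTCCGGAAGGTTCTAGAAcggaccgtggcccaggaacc
The call of Hspd1 was lost in 7 of 13 omissions of single samples. The antioxidant response element, TGACNNNGC on either strand, was in 7 of 23 windows of antioxidant genes (30.43%) and in 17.1% of all, and is shown for Txnrd1 (chr10:82859094-82859142, plus strand), which closed, and G6pdx (chrX:74428909-74428957, minus), which did not.
Txnrd1: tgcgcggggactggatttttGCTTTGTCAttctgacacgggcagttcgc
G6pdx: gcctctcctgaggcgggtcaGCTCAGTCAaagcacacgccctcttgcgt

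The cell types of the arch were read from marker lists. Smooth muscle markers had the highest sum of the lists, and 6 of 10 were lower on DR (median -0.42). Of 10 endothelial markers 0 were called by edgeR or DESeq2, 3 had an unadjusted p under 0.05 in either and 5 were within 1.5-fold, Erg at -0.23 ± 0.14, and Pecam1 was unresolved at 0.32 ± 0.21. Of 10 adventitial fibroblast markers 4 were higher and 2 lower, with Dpep1 at 0.92 ± 0.18, Dcn at 0.42 ± 0.13, Pi16 at -0.91 ± 0.16, Serpinf1 at -0.71 ± 0.15 and Clec3b within 1.5-fold (-0.25 ± 0.13). Macrophage markers were higher for 5 of 10 on DR and 7 on AL (median 0.49 and 1.28), and the diet effect was called for 5, all lower on DR. The DR count of 5 was 2 without WT sample 018, in males or after thinning, and 3 without AL-fed mutant 004, restricted sample 006 or 016, or WT sample 012 or 025. Their sum was 1464 to 2206 in restricted mutants, 1002 to 1415 in the WT and 1906 to 3459 in AL-fed mutants. C1qa held 130, 150.8, 179.9 and 138.5 normalised counts in the WT and 197.3, 211.1, 193.3, 245.5 and 203.2 in restricted mutants, above the WT in each sample (0.45 ± 0.13), a call lost without WT sample 018 (adjusted p = 0.105), with 304.7 to 511.1 on AL. Lyve1, of resident macrophages, was at 1.08 on DR and 1.17 on AL, and Mpeg1 at 1.63 and 2.31. T and B cell markers and neutrophil and mast cell markers were too low to test.

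Markers of other tissues varied between samples. The heart muscle gene Tnnt2 was at 694.3 to 1879 in restricted mutants and at 156.5 to 256.2 in the WT (2.40 ± 0.26). It was the 1 called on DR of 8 heart muscle markers tested (list median -0.14). The summed heart muscle markers, at 998.7 to 2341 in restricted mutants and 578.6 to 1170 in the WT, overlapped. Of 4 cartilage markers 2 were lower, Acan at -1.36 ± 0.31 and Comp at -0.81 ± 0.20. Mesothelial markers ranged from 231.0 to 1555 in restricted mutants and from 115.0 to 845.9 in the WT, with Muc16 at 1.90 ± 0.62, the 1 marker called of 9, and all 9 were called higher without WT sample 020 (median 2.24). Of 7 nerve and Schwann cell markers tested, 1 was called on DR, Cdh19 at 1.08 ± 0.36 (list median -0.01). Prg4, of joints and serous linings, held 66.1 to 161.0 normalised counts in the WT and 809.5 to 7325 in restricted mutants, where sample 016 was the highest (4.37 ± 0.62). Muc16, Cdh19, Dcn and Retn lost their calls in 11, 6, 5 and 4 of 13 omissions of single samples. The part of these tissues in the calls was not tested.

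**Figure D5:**
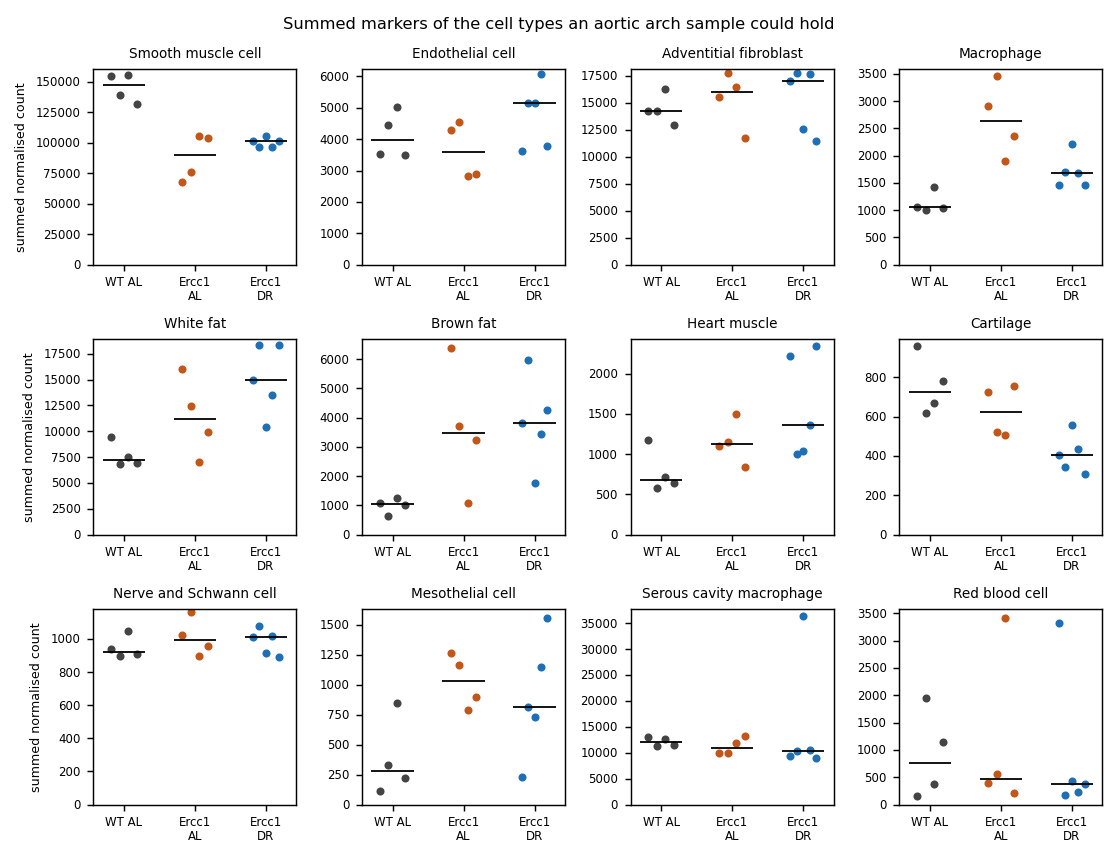
Summed normalised counts of the markers of 12 cell types or tissues in AL-fed WT (4 samples), AL-fed Ercc1 d/- (4) and restricted Ercc1 d/- (5) arches, each point a mouse and each bar a median. Smooth muscle sums are lower in restricted mutants (96470 to 105501) than in the WT (131672 to 155898). Brown fat sums are higher (1770 to 5968 against 628.4 to 1251), with AL-fed mutants at 1089.5 to 6390.8. The serous cavity macrophage list sets sample 016 apart at 36309. Its members with the highest level per length are Fn1 and Ltbp1, and Ltbp1 is also in the elastic fibre list, so this sum is not specific to serous cavity cells.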

How the data were processed

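Gene counts of whole aortic arches, 1 mouse per sample, were deposited by the authors as raw counts of unique molecules per Ensembl gene. Per the study's methods and processing notes, reads were demultiplexed with bcl2fastq 2.20, trimmed with fastp, aligned to GRCm39 with STAR 2.7.10a, deduplicated with UMI-tools 1.1.2 and counted with HTSeq 2.0.2. All 29 columns matched a sample, and 5 summary lines of the counter were left out. Gene symbols came from GENCODE vM39, a later annotation than that of the counts. Tmem173, Lepre1 and Ahsp of the lists had no match.

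A gene entered the tests where over 10 samples held over 10 counts of it, which left 12353. The 18 samples of 22 weeks were fitted with edgeR 4.0.16 in R 4.3.3 (TMM factors 0.943 to 1.065, robust quasi-likelihood F test, terms for group and sex), and p was adjusted by Benjamini-Hochberg over all genes tested. Called genes had an adjusted p of at most 0.05 and a change of at least 1.2-fold. Equivalence within 1.5-fold used 2 one-sided tests with the SE of the same fit, adjusted in the same way. Scripts were tested on simulated data. Alternatives were DESeq2 1.42.0, other size factors, no filter, sample 003 added, other terms and samples in the fit, males, thinning to 921167 counts, other thresholds and each sample left out. Libraries held 921167 to 9616382 counts in the groups compared, so low genes were less precise in the restricted mutants, and intervals of reads cover counting error only.

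Samples, members and gene lists were chosen with earlier results of these data known. Named genes were those the study names in its RNA panels, the 6 called genes with the smallest p in each direction, the 6 genes in each direction that closed from the largest difference on AL, the 4 genes in each direction new on DR with a called diet effect, the gene that changed sign, up to 2 called and 2 closed genes per pathway list and the 2 markers of each cell type with the highest level per length. Some genes that this rule names are not reported here. Markers of cell types without a call are given by their sums where not named. Other genes named (further markers, Lep, Ifit1, Isg15, Rsad2, Myl9 and Vcl, and the promoter motifs) were chosen after their values were seen. RefSeq promoters on GRCm38.p6 were matched by symbol.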

Additional observations from a re-analysis of the deposited data

Results flagged for a closer look

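Among 374 groups of values, 24 (6.42%) held a sample that stood apart from the rest of its group, where chance gives about 1 in 20. In the WT, sample 018 was high for Irf9 (173.6 normalised counts), Oas2 (30.83), H2-Eb1 (124.7), H2-Ab1 (309.2), H2-Aa (341.9) and Cd74 (562.0). WT sample 025 was low for Bgn (24068.6), sample 012 was high for Bmal1 (20.01) and sample 020 for the sum of macrophage markers (1414.9).

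Among the restricted mutants, sample 016 was high for Serpine2 (3217.4), Ccl9 (180.9), Mpeg1 (250.4) and Prg4 (7324.7), and for the sums of T and B cell markers (69.41), neutrophil and mast cell markers (121.5) and serous cavity macrophage markers (36308.9). Sample 022 was high for Oas2 (102.4), Hlf (321.3), Bhlhe41 (144.5) and Dbp (399.9). Sample 006 was high for Pals2 (368.2), Acta2 (27836.8) and the sum of red blood cell markers (3323.2), and sample 029 for Celf4 (99.66).

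The effect of DR differed between genotypes by edgeR's interaction term for 4 of the 170 genes examined one by one. The effect in Ercc1 d/- minus the effect in WT mice, on the log2 scale, was -1.65 for Celf4 (adjusted p = 0.0414), -1.60 for Timp1 (0.0349), -1.84 for Lgals3 (6.55e-04) and -3.87 for Spp1 (6.55e-04).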

How the results depend on the processing

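The main counts were 2071 genes called, 6059 within 1.5-fold, 980 called on both diets, 352 closed, 312 unresolved and 102 called with a diet effect. No filter on low counts gave 553 unresolved and split the calls into 794 higher and 1408 lower, against 973 and 1098. DESeq2 gave 166 with a diet effect, and a fit of only the groups compared gave 61. With sample 003 added, 234 closed and 52 had a diet effect. In males these counts were 357 called on both diets, 74 closed, 137 unresolved and 59 with a diet effect. Thinning gave 1246 called, 3343 within 1.5-fold, 561 called on both diets, 116 closed and 48 with a diet effect. A test against 1.2-fold gave 867 called and 409 on both diets. A margin of 1.2-fold placed 0 genes within it, closed 0 and left 664 unresolved, and a margin of 2-fold gave 9101, 544 and 120, so the class within 1.5-fold depends on its margin. Without single samples the counts ranged from 1329 to 2204 called, 5192 to 6077 within 1.5-fold, 584 to 969 on both diets, 158 to 417 closed, 192 to 436 unresolved and 42 to 173 with a diet effect. Leaving out WT sample 018, the only female of its group, gave 1329 called, 584 on both diets and 158 closed. Closed genes numbered 214 without sample 004, and unresolved genes 192 without 004 and 194 without 005. Genes with a diet effect numbered 48 without 004, 60 without 005, 53 without 014, 51 without 029, 42 without 026 and 173 without 022.

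Of the 170 genes examined one by one, 170 kept their class with other size factors, 163 with DESeq2, 132 with thinning and 126 in males. The only change of direction was mt-Co2 with sample 003 added (-0.145). The causes were not tested. No paired analysis was possible because each mouse gave 1 sample and no replicate number is shared between groups.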

Other observations

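Genes near Ercc1 were counted after the values of Bcam had been seen. Bcam lies 399606 bases from Ercc1 on chromosome 7. Of 38 tested genes within 1 Mb of Ercc1, 3 were higher and 8 lower in restricted mutants than in the WT (28.9% called, against 16.8% of all tested genes), and 13 were called on AL (34.2%, against 13.3%). In 8 of them both calls had the same direction. Within 5 Mb, 78 genes were tested, of which 6 were higher and 11 lower on DR (21.8%) and 18 were called on AL (23.1%). Both comparisons use the same WT samples.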
